A study of Mus musculus with 10 samples.

Results

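The genes described here are the glucocorticoid receptor, the enzyme that regenerates its ligand, and 7 genes that respond to it, namely *Nr3c1*, *Hsd11b1*, *Fkbp5*, *Tsc22d3*, *Zbtb16*, *Sgk1*, *Mt1*, *Mt2* and *Lcn2*. They were chosen by name, and all 9 were found among the 27267 genes listed. The libraries came from interscapular brown adipose tissue (iBAT) of C57BL/6 mice of 4 weeks on a chow diet, all labelled male, with 5 wild-type mice (WT 1 to 5) and 5 global *Mgp* knockout mice (*Mgp*-KO 1 to 5). *Mgp* encodes matrix Gla protein, an extracellular inhibitor of bone morphogenetic proteins, and the study asked what its loss does to the developing tissue. The values are normalized counts, that is, reads on a gene divided by a size factor of the library.

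The knockout is global, so a change in iBAT can arise in any cell type or in the hormone supply. *Mgp* was at 0, 0.765 and 0.821 normalized counts in *Mgp*-KO 1 to 3, but at 500.2 and 330.6 in *Mgp*-KO 4 and 5, against 466.1 to 1146 in the WT libraries. The reads of *Mgp* thus go against the labels of *Mgp*-KO 4 and 5, and the groups are called by their labels throughout. *Xist*, which males barely transcribe, was at 5094 normalized counts in WT 2 and at 0.754 to 44.0 in the other 9 libraries, against the male label of WT 2, and without WT 2 limma also called 0 members. Replicates 1 to 3 held 19616366 to 22252260 reads on genes per library and replicates 4 and 5 held 9253793 to 13281873, and mitochondrial ribosomal RNA took 0.771% to 1.72% and 6.5% to 16.7% of the reads. The members are therefore compared over all 10 libraries and within each of these sets. All 12 brown adipocyte markers looked at were detected in every library. Their summed level was lower in the libraries labelled *Mgp*-KO within each set without overlap, at 217800 to 235000 in WT and 152300 to 191600 in *Mgp*-KO of replicates 1 to 3, and at 418000 to 418900 and 214100 to 309200 in replicates 4 and 5.

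Glucocorticoids enter cells freely and bind the receptor NR3C1, which is held by heat shock protein chaperones in the cytosol and moves to the nucleus once it has bound. Inside the cell, HSD11B1 turns the inactive keto form of the steroid back into active corticosterone, with reducing power made by H6PD. The bound receptor induces genes such as *Fkbp5*, *Tsc22d3* and *Zbtb16*, and in brown fat glucocorticoids are known to promote lipid storage and to dampen thermogenesis.

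The members differed widely in level. Per kilobase of exon, the median normalized count in WT was 1856 for *Mt1* and 609.5 for *Mt2*, the metallothioneins that bind zinc and copper. It was 402.7 for *Hsd11b1*, 309.8 for *Sgk1*, 266.4 for *Nr3c1* and 173.7 for *Tsc22d3*. These neighbours in the order overlapped in their WT libraries, *Hsd11b1* for example at 344.9 to 584.3 and *Sgk1* at 274.5 to 1111. *Zbtb16* followed at 92.3, *Fkbp5* at 11.7 and *Lcn2* at 1.32 per kilobase.

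**Figure D1:**
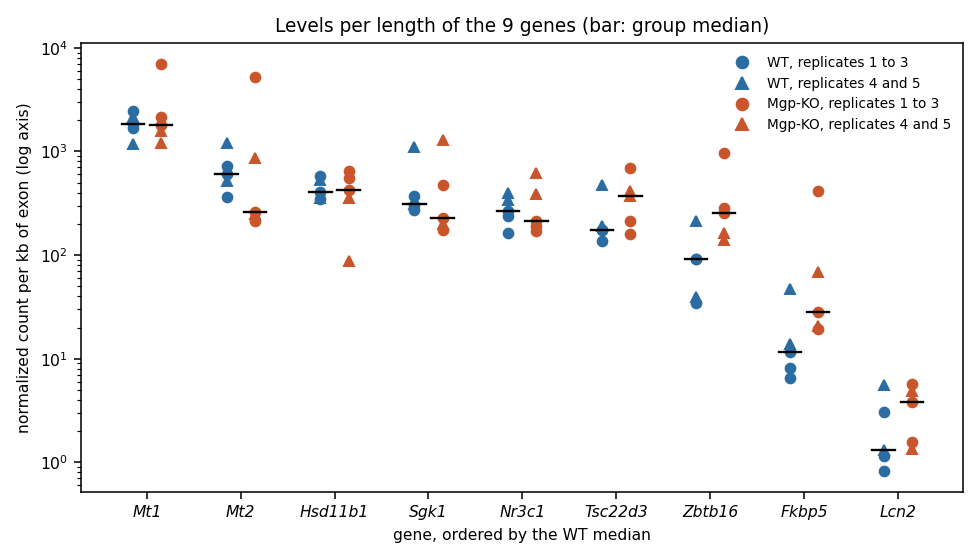
Normalized counts per kilobase of exon (log axis) of the 9 genes, ordered by their WT median, with 1 point per library, circles for replicates 1 to 3, triangles for replicates 4 and 5, and a bar for each group median. *Mt1* stands highest and *Lcn2* lowest, and 1 library labelled *Mgp*-KO lies far above the rest for *Fkbp5*, *Zbtb16*, *Mt1* and *Mt2*.

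Promoter sequences from RefSeq (GRCm38.p6), 250 bases before to 50 bases after a start site, were searched for 7 of the 9 members, without *Nr3c1* and *Zbtb16*. Of these, 3 are shown because they hold the receptor's full palindrome or at least 3 metal response cores. The first lies at chr10:21993640-21993939 on the plus strand, at an internal start of *Sgk1*, a serine/threonine kinase gene. Its capitals mark the receptor core AGAACA or its reverse complement TGTTCT. The others belong to *Mt1* at chr8:94178839-94179138 and *Mt2* at chr8:94172368-94172667, both on the plus strand. Their capitals mark the core of the metal response element, TGCACNC or TGCGCNC on either strand.
Sgk1: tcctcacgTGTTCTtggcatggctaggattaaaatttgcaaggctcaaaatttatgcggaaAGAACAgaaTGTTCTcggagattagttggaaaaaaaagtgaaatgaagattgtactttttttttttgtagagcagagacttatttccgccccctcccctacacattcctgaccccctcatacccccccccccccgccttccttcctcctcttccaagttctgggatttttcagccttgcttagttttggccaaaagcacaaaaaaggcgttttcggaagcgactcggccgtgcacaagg
Mt1: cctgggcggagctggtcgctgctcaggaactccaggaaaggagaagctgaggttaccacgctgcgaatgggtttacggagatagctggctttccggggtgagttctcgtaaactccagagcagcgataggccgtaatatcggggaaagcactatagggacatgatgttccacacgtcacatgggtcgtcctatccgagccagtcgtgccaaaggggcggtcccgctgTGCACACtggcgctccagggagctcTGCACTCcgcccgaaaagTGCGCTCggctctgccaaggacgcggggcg
Mt2: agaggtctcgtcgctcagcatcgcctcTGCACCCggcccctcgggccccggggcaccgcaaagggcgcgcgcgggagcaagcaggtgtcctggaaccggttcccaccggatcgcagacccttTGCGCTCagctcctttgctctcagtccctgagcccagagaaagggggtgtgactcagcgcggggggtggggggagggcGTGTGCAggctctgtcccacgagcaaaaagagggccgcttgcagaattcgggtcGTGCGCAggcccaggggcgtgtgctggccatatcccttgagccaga
The palindromic glucocorticoid response element, AGAACA and TGTTCT with 3 bases of any kind between them, searched on both strands, was present in 3 of 32851 promoters (0.00913%), and 1 of these is the *Sgk1* promoter shown. There the element lies at chr10:21993701-21993715, and it begins 189 bases before the start. The single core AGAACA, which the palindrome contains, was in 6233 promoters (19.0%). It was absent from these windows of *Fkbp5*, *Hsd11b1*, *Lcn2*, *Mt1* and *Mt2*. The metal response core was in 8444 promoters (25.7%). *Mt1* held 3 copies and *Mt2* held 4, where 647 promoters (1.97%) held at least 3 and 170 (0.517%) at least 4. A match describes the letters only.

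Over all 10 libraries, *Zbtb16* and *Fkbp5* had 95% intervals above 0, and none of the 8 members that could be tested passed limma's adjustment over all genes. *Lcn2* had a mean below the minimum of 10 normalized counts and was left out of this fit. With limma, 0 of the 8 passed an adjusted p of 0.05, and 2 had an unadjusted p below 0.05. Of all 13714 genes tested, 9 passed (0.0656%), of which 1 was higher (0.00729%) and 8 were lower (0.0583%) in the libraries labelled *Mgp*-KO, and 1421 (10.4%) had an unadjusted p below 0.05. EdgeR also called 0 members, and DESeq2 called 1, *Zbtb16*. In whole tissue, fewer cells of a type and less RNA per cell cannot be told apart.

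**Figure D2:**
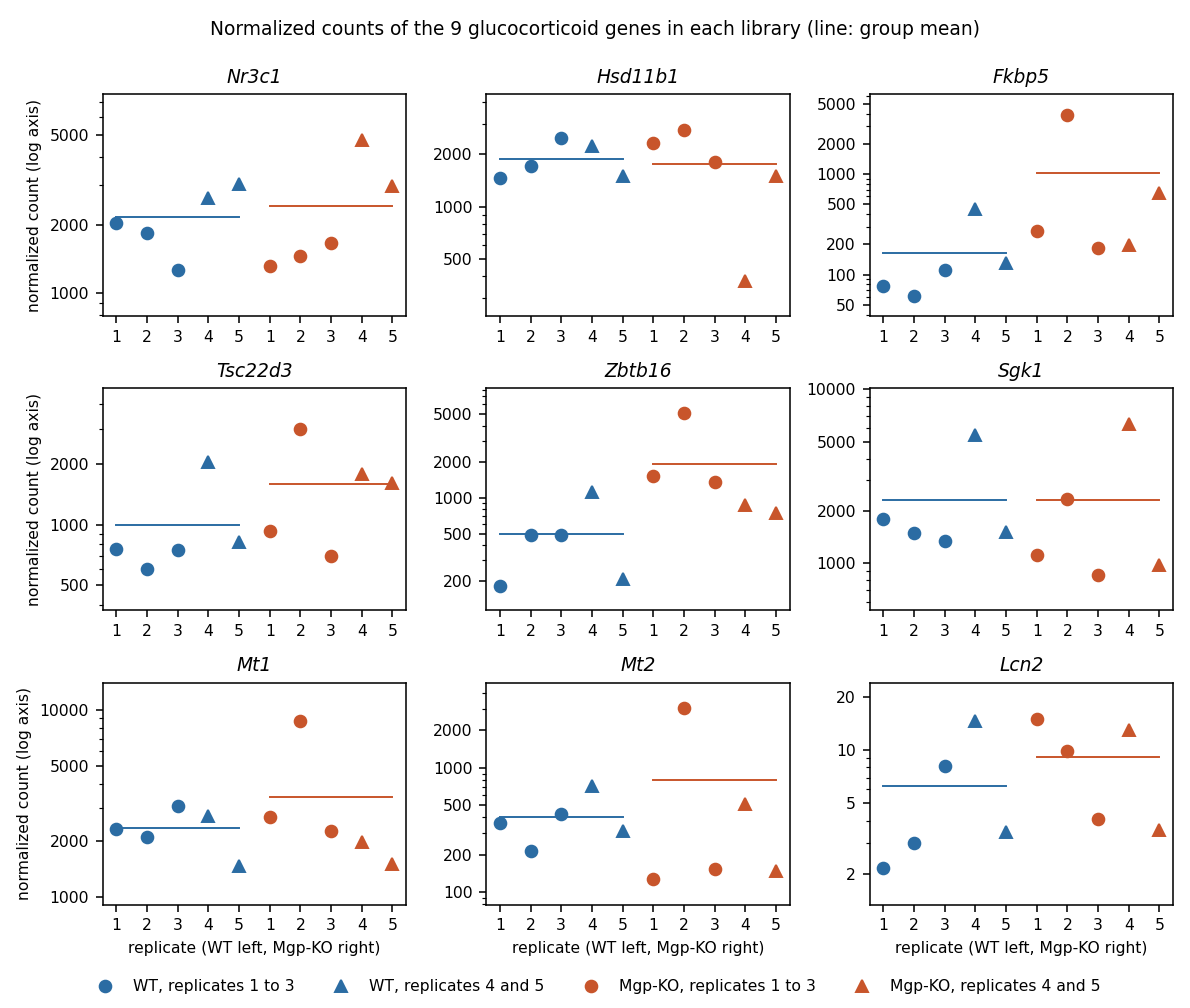
Normalized counts (log axis) of the 9 genes in each library, with WT 1 to 5 on the left and *Mgp*-KO 1 to 5 on the right of each panel, circles for replicates 1 to 3, triangles for replicates 4 and 5, and a line for the mean of each group. *Mgp*-KO 2 is the highest of the 10 libraries for *Hsd11b1*, *Fkbp5*, *Tsc22d3*, *Zbtb16*, *Mt1* and *Mt2*, and *Mgp*-KO 4 for *Nr3c1* and *Sgk1*.

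The receptor gene *Nr3c1* had 2047, 1847, 1257, 2641 and 3030 normalized counts in WT 1 to 5 and 1314, 1451, 1656, 4732 and 2962 in *Mgp*-KO 1 to 5. The groups overlapped, and the higher values were those of replicates 4 and 5 in both. The difference between the groups was 0.04 on the log2 scale (SE 0.37, limma adjusted p = 0.977), with a 95% interval from -0.76 to 0.85. Between the sets, *Nr3c1* differed by 1.05 (SE 0.20, limma adjusted p = 0.00236), with 1596 ± 312 (SD, n = 6) in replicates 1 to 3 and 3341 ± 942 (SD, n = 4) in replicates 4 and 5, without overlap. This was the only member of 8 that limma called between the sets, where 5243 of 13714 genes (38.2%) were called. DESeq2 also called *Sgk1* (log2 difference 1.26, adjusted p = 0.0249). *Tsc22d3* passed in limma without *Mgp*-KO 2 and *Sgk1* without *Mgp*-KO 5. The sets also differ in depth and ribosomal RNA, and the part of these in the difference was not tested.

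The receptor's chaperones and cofactors were looked at as a list of 18 genes that includes *Nr3c1* and *Fkbp5*. With limma, 0 of 18 passed between the groups over all libraries (4 with an unadjusted p below 0.05, against 10.4% of all genes), and the median log2 difference was 0.18 against 0.03 over all genes tested. In replicates 1 to 3 alone it came to 0.17 and in replicates 4 and 5 to 0.12, with 0 of 18 called in each. Without *Mgp*-KO 2 the first of these was 0.088, with 1 called higher, *Fkbp5*, where 3.20% of all genes were. Between the sets 6 were higher in replicates 4 and 5 and 3 were lower, where 2509 of all genes (18.3%) were higher and 2734 (19.9%) lower. *Hsp90aa1*, the inducible form of the chaperone that holds the receptor, stood at 274.3 ± 105.4 (SD, n = 6) in replicates 1 to 3 and at 2171 ± 1372 (SD, n = 4) in replicates 4 and 5 (log2 difference 2.82, SE 0.40, limma adjusted p = 0.000427). The sets did not overlap for this gene.

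*Hsd11b1*, at chr1:193221634-193264075 on the minus strand (GRCm38, GENCODE M21), had 1466, 1712, 2484, 2241 and 1512 normalized counts in WT 1 to 5. It had 2339, 2764, 1808, 375.6 and 1505 in *Mgp*-KO 1 to 5. All but *Mgp*-KO 4 lay between 1466 and 2764, and the groups overlapped (log2 difference -0.33, SE 0.46, limma adjusted p = 0.846). Within replicates 4 and 5 both libraries labelled *Mgp*-KO lay below both WT libraries, by -1.29 on the log2 scale (SE 0.64, limma adjusted p = 0.679). Such a lack of overlap with lower *Mgp*-KO values was seen for 2921 of 13714 genes (21.3%) with these 4 libraries. The effect in replicates 4 and 5 minus that in replicates 1 to 3 was -1.59 (SE 0.69, unadjusted p = 0.0439, limma adjusted p = 0.477). Without *Mgp*-KO 5 it was -2.59, and it then rests on *Mgp*-KO 4 alone, which has no spread of its own.

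*H6pd*, which encodes the dehydrogenase that supplies the enzyme with NADPH, had 2990, 2476, 3832, 2087 and 3094 normalized counts in WT 1 to 5. It had 3812, 5588, 3123, 917.8 and 2095 in *Mgp*-KO 1 to 5. Its highest library was again *Mgp*-KO 2 and its lowest *Mgp*-KO 4, as for *Hsd11b1*. *Hsd11b2*, the opposing enzyme that inactivates corticosterone, stayed between 0 and 3.77. A gene with 0 reads is under a floor of 3 reads, which is 2.15 to 5.19 normalized counts, and floors cover counting error only. Of the 10 genes of ligand supply, 8 were listed and 5 were tested, *Hsd11b1* among them, and limma called 0 of 5 over all libraries (1 with an unadjusted p below 0.05) and 0 within each set. Their median log2 difference came to 0.32 in replicates 1 to 3 (0.18 without *Mgp*-KO 2) and to -0.60 in replicates 4 and 5. *Abcb1b*, a drug efflux pump gene, was at 137.7 ± 43.4 in WT and 264.4 ± 131.2 in the libraries labelled *Mgp*-KO (SD, n = 5 each, log2 difference 0.86, SE 0.35, limma adjusted p = 0.412).

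*Fkbp5* encodes a co-chaperone of HSP90 that lowers the affinity of the receptor for its hormone, and lies at chr17:28399094-28517527 on the minus strand. It had 77.3, 61.4, 110.3, 448.5 and 131.5 normalized counts in WT 1 to 5. It had 269.8, 3894, 183.1, 195.9 and 644.8 in *Mgp*-KO 1 to 5. The value in *Mgp*-KO 2 was far above all others, and those in *Mgp*-KO 1 and 3 were above those of WT 1 to 3. Over all libraries the group means were 165.8 ± 160.4 and 1037 ± 1608 (SD, n = 5 each), and the log2 difference was 1.92 (SE 0.80, unadjusted p = 0.0349, limma adjusted p = 0.428). With each library left out in turn it ran from 1.16 without *Mgp*-KO 2 to 2.37 without WT 4. An exact permutation test gave p = 0.0714 (two-sided), where 0.00794 is the smallest value this design allows.

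*Zbtb16* encodes the transcription factor PLZF and lies at chr9:48654297-48836222 on the minus strand. It had 183.1, 488.9, 487.4, 1115 and 207.7 normalized counts in WT 1 to 5 and 1508, 5102, 1360, 869.3 and 744.4 in *Mgp*-KO 1 to 5. Each library labelled *Mgp*-KO lay above every WT library but WT 4. The means were 496.5 ± 375.8 and 1917 ± 1809 (SD, n = 5 each), a 3.86-fold ratio, and the log2 difference was 1.87 (SE 0.58, unadjusted p = 0.00706, limma adjusted p = 0.250). The exact permutation p was 0.0238 (two-sided). DESeq2 gave a log2 difference of 1.95 and an adjusted p of 0.0427, and a term for the 2 sets in limma gave an adjusted p of 0.106, with 324 of 13714 genes called (2.36%).

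Within replicates 1 to 3, *Fkbp5* and *Zbtb16* were higher in all 3 libraries labelled *Mgp*-KO than in all 3 WT libraries. Of all genes tested, 2129 (15.5%) showed such a lack of overlap with higher *Mgp*-KO values. For *Zbtb16* the means were 386.5 ± 176.1 and 2656 ± 2119 (SD, n = 3 each) and the log2 difference was 2.63 (SE 0.57, limma adjusted p = 0.0540). For *Fkbp5* they were 83.0 ± 24.9 and 1449 ± 2118, with a log2 difference of 2.83 (SE 1.03, limma adjusted p = 0.171). Thus limma called 0 of 8 members here (2 with an unadjusted p below 0.05), where 486 of 13714 genes were called (3.54%) and 3016 had an unadjusted p below 0.05 (22%), edgeR called 0, and DESeq2 called *Zbtb16* (log2 difference 2.77, adjusted p = 0.00646).

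Leaving out *Mgp*-KO 2 narrowed the spread and brought both genes past the threshold. Each library of replicates 1 to 3 was left out in turn, with 0 to 2 members called. *Mgp*-KO 2 held the highest value of both genes, so this choice follows from the values tested and the calls are no independent support. The same limit applies to the other fits without *Mgp*-KO 2. Without this library, *Zbtb16* stood at 386.5 ± 176.1 (SD, n = 3) in WT 1 to 3 and at 1434 ± 105 (SD, n = 2) in *Mgp*-KO 1 and 3, a 3.71-fold difference (log2 2.02, SE 0.40, limma adjusted p = 0.0318). *Fkbp5* stood at 83.0 ± 24.9 and 226.5 ± 61.3, a 2.73-fold difference (log2 1.45, SE 0.28, limma adjusted p = 0.0281). In this fit 439 of 13714 genes were called higher (3.20%). *Mt2* and *Sgk1* lay in the other direction without overlap, with log2 differences of -1.19 (SE 0.28, limma adjusted p = 0.0563) and -0.65 (SE 0.17, limma adjusted p = 0.0705), where 2594 genes (18.9%) did not overlap in that direction. *Mt1* showed -0.0038 (SE 0.17, limma adjusted p = 0.993) and *Tsc22d3* 0.21 (SE 0.17, limma adjusted p = 0.524).

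Within replicates 4 and 5 limma, edgeR and DESeq2 called 0 members, and limma gave 0 with an unadjusted p below 0.05. Of the 13714 genes 0 were called (0%), and 855 (6.23%) had an unadjusted p below 0.05. The log2 difference of *Zbtb16* was 0.74 (SE 0.73, 95% interval -1.0 to 2.47) and that of *Fkbp5* was 0.55 (SE 0.74, 95% interval -1.22 to 2.32). The effects of the sets were not shown to differ, since limma called 0 of 8 members for this difference (1 with an unadjusted p below 0.05), DESeq2 called 0, and 1 of 13714 genes was called (0.00729%), with 1419 at an unadjusted p below 0.05 (10.3%). For *Zbtb16* the difference between the sets was -1.89 (SE 1.06, limma adjusted p = 0.513).

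**Figure D3:**
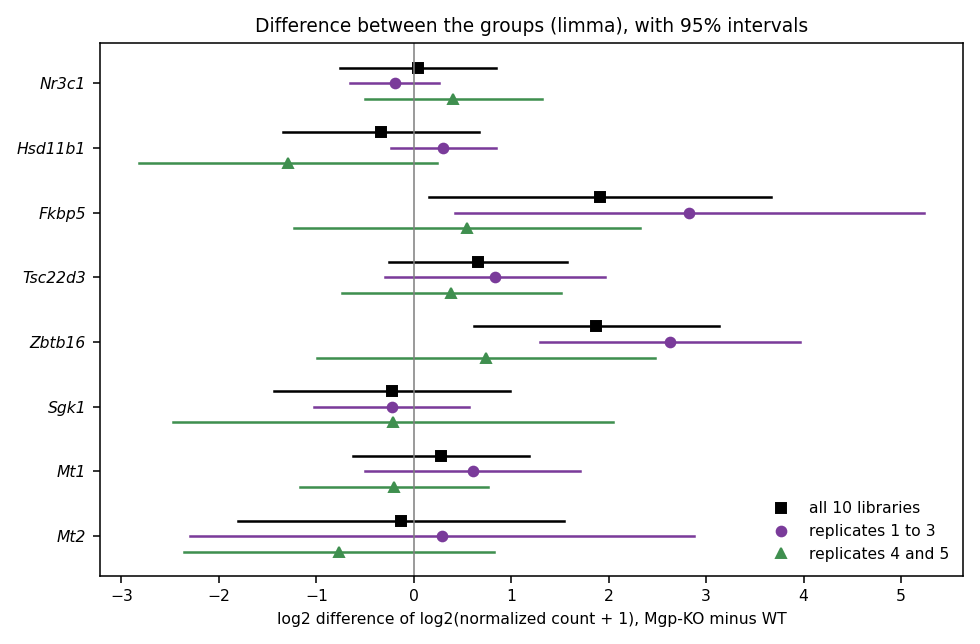
Log2 differences of log2(normalized count + 1), *Mgp*-KO minus WT, with 95% intervals from limma, for the 8 tested members over all 10 libraries (squares), replicates 1 to 3 (circles) and replicates 4 and 5 (triangles). The intervals of *Zbtb16* and *Fkbp5* lie above 0 over all libraries and in replicates 1 to 3, and every interval in replicates 4 and 5 spans 0.

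*Tsc22d3* encodes GILZ, a leucine zipper protein through which glucocorticoids limit inflammatory signalling, and lies at chrX:140539528-140600659 on the minus strand. It had 754.0, 599.0, 752.8, 2062 and 823.7 normalized counts in WT 1 to 5 and 931.6, 2986, 698.8, 1792 and 1618 in *Mgp*-KO 1 to 5. The groups overlapped, with WT 4 and *Mgp*-KO 2 at the top (log2 difference 0.66, SE 0.42, limma adjusted p = 0.627). *Sgk1* encodes a kinase that promotes sodium transport and cell survival, and lies at chr10:21882184-21999903 on the plus strand. It had 1806, 1487, 1346, 5445 and 1519 in WT 1 to 5 and 1118, 2342, 858.1, 6312 and 977.7 in *Mgp*-KO 1 to 5. WT 4 and *Mgp*-KO 4 stood apart from the other 8 libraries, and the group means were 2321 ± 1755 and 2322 ± 2308 (SD, n = 5 each, limma adjusted p = 0.928).

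The metallothionein genes lie next to each other on chromosome 8. *Mt1* (chr8:94179082-94180327, plus strand) had 2312, 2111, 3074, 2703 and 1467 normalized counts in WT 1 to 5. It had 2673, 8718, 2265, 1975 and 1512 in *Mgp*-KO 1 to 5. Apart from *Mgp*-KO 2 the groups covered the same range (log2 difference 0.28, SE 0.41, limma adjusted p = 0.859). *Mt2* (chr8:94172664-94173568, plus strand) had 358.4, 211.9, 423.4, 716.8 and 308.0 in WT 1 to 5 and 126.6, 3043, 152.7, 511.5 and 147.7 in *Mgp*-KO 1 to 5. *Mgp*-KO 1, 3 and 5 were the lowest of the 10 libraries and *Mgp*-KO 2 the highest, and the log2 difference was -0.13 (SE 0.77, limma adjusted p = 0.969). Its direction was not settled, since the group means were 403.7 and 796.3, edgeR and DESeq2 both gave 0.98, and with a library left out it ran from -0.92 to 0.22. The antisense gene *Gm45774* covers 432 of the 588 exon bases of *Mt2*, and the strand setting of the counting was not stated. *Gm45774* stood at 27.5 in *Mgp*-KO 2 and at 0 to 6.48 in the other libraries.

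Zinc transporters and the metal-responsive factor *Mtf1* form a list of 10 genes with *Mt1* and *Mt2*, of which 9 were tested, and limma called 0 of 9 over all libraries (1 with an unadjusted p below 0.05) and 0 within each set. In replicates 1 to 3 their median log2 difference came to 0.24 (-0.0038 without *Mgp*-KO 2), and in replicates 4 and 5 to -0.059. *Slc30a1*, the zinc exporter that metal-bound MTF1 induces, had 266.1, 589.8, 294.0, 743.0 and 500.6 in *Mgp*-KO 1 to 5 and 329.3 to 598.0 in WT. Its groups overlapped, but those of *Slc39a8*, 1 of the 9, did not. *Slc39a8* had 84.8 to 136.6 in WT and 154.4 to 202.7 in the libraries labelled *Mgp*-KO. Of all genes, 1.39% lay apart with higher *Mgp*-KO values.

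*Lcn2* encodes lipocalin 2, a siderophore-binding protein of neutrophils and adipocytes, and lies at chr2:32384633-32388252 on the minus strand. It rested on 2 to 20 reads per library. Its values were 2.15, 3.0, 8.09, 14.7 and 3.46 normalized counts in WT 1 to 5 and 15.1, 9.95, 4.11, 13 and 3.52 in *Mgp*-KO 1 to 5, and several are at or near the floor. The mean log2 difference was 0.57 (two-sided exact permutation p = 0.278, n = 5 each). Beside it, the summed level of 12 neutrophil markers was 43.6 to 61.0 in WT and 102.0 to 556.9 in the libraries labelled *Mgp*-KO, with 524 in *Mgp*-KO 1 and 557 in *Mgp*-KO 4. *S100a8*, *S100a9* and *Csf3r* were tested, and limma called 0 of these 3 over all libraries (3 with an unadjusted p below 0.05). *S100a9* was at 7.87 to 22.0 in WT and 39.9 to 215.3 in the libraries labelled *Mgp*-KO, without overlap (log2 difference 2.33, SE 0.54, limma adjusted p = 0.119), as for 1.39% of all genes with higher *Mgp*-KO values. It passed with a term for the sets (limma adjusted p = 0.0439), where 2.36% of all genes were called. *Csf3r* did not overlap either (log2 difference 1.81, SE 0.46, limma adjusted p = 0.164), and passed within replicates 1 to 3 without *Mgp*-KO 2 (limma adjusted p = 0.0200), where 3.20% of all genes were called higher. *Ly6g* was at 0 in all WT libraries and at most 3.24 elsewhere, and *Camp* and *Ngp* were at most 4.52. The part of neutrophil RNA in the *Lcn2* values was not tested.

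**Figure D4:**
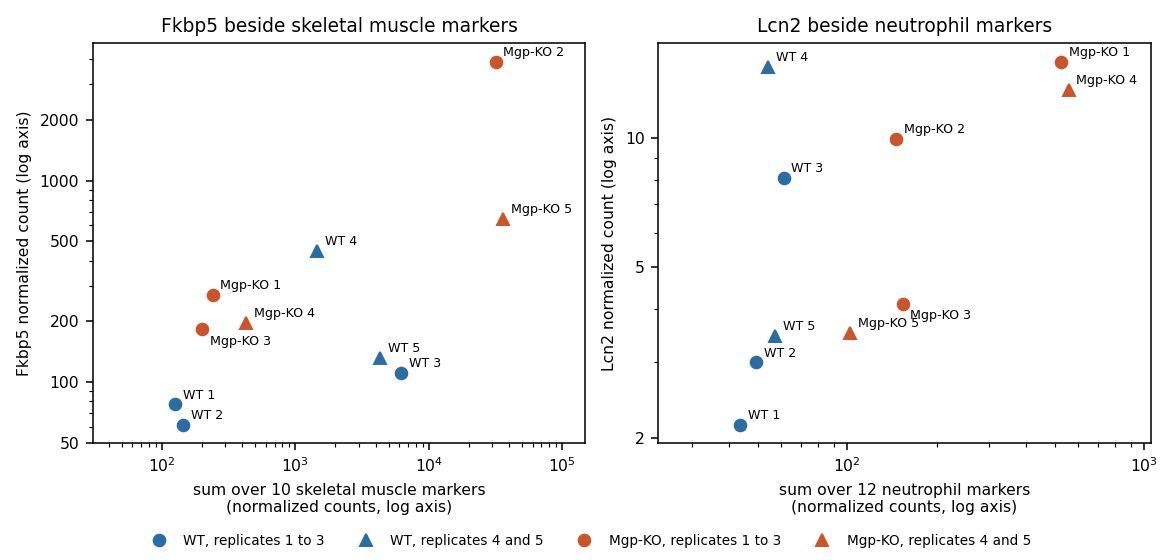
Left, *Fkbp5* against the summed normalized counts of 10 skeletal muscle markers, and right, *Lcn2* against those of 12 neutrophil markers, with 1 labelled point per library on log axes, circles for replicates 1 to 3 and triangles for replicates 4 and 5. *Mgp*-KO 2 and 5 have similar muscle sums (31760 and 36140), with *Fkbp5* at 3894 and 644.8, the highest and next highest values of the 10 libraries.

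The library *Mgp*-KO 2 stood apart across the set. It held the highest value of the 10 libraries for 6 of the 8 tested members, where 2309 of all 13714 genes (16.8%) had their highest value there. For 4 members it was at least 2-fold above all other libraries, against 160 of 13714 genes (1.17%). The ratio to the next library was 6.04 for *Fkbp5*, 4.25 for *Mt2*, 3.38 for *Zbtb16* and 2.84 for *Mt1*, and 1.45 for *Tsc22d3*. Against the mean of *Mgp*-KO 1 and 3, *Mt2* was 21.8-fold and *Fkbp5* 17.2-fold higher, and *Tsc22d3*, *Zbtb16* and *Mt1* were 3.66-, 3.56- and 3.53-fold higher. *Nr3c1* was at 0.977 of that mean. This is 1 library, and no test across replicates is possible.

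Of a wider list of 35 genes known to respond to glucocorticoids, without the members, 33 were tested, and 18 had their highest value in *Mgp*-KO 2 and 10 (30.3%) were there at least 2-fold above every other library. These 10 were named after their values were seen. *Arrdc2*, an arrestin-domain gene, was 16.6-fold above the next library, *Hif3a* 6.79-fold, the sestrin gene *Sesn1* 5.80-fold and the kinase gene *Map3k6* 4.41-fold. *Foxo3*, *Cebpd*, *Lpin1*, *Klf15*, the clock gene *Per1* and *Glul* were 3.17-, 3.14-, 3.05-, 2.56-, 2.44- and 2.05-fold above it. Against the mean of *Mgp*-KO 1 and 3 the median log2 difference was 1.16 over this list, 1.83 over the members and 0.01 over all genes tested. Of 7 tested genes that glucocorticoids repress, 0 were above both *Mgp*-KO 1 and 3, against 41.6% of all genes, and their median difference was -0.86. *Ccl2* and *Il1b* passed the minimum mean of 10 only through the libraries labelled *Mgp*-KO. The median of -0.86 is the value of *Ccl2*, and without these genes the values ran from -1.07 to -0.35. Immune cell markers were low in *Mgp*-KO 2 as well, with 0 of 10 macrophage markers (median -0.43) and 0 of 3 neutrophil markers (median -0.81) above both *Mgp*-KO 1 and 3. The part of immune cells in these values was not tested. Between the groups, limma called 0 of these 7 over all libraries (0 with an unadjusted p below 0.05), where 6 had a positive log2 difference and the median was 0.43. By set it came to -0.0044 in replicates 1 to 3 and to 1.32 in replicates 4 and 5, with 0 called in each. Without *Mgp*-KO 2 the value in replicates 1 to 3 was 0.22, with 5 of 7 positive, and *Il1b* was higher there (log2 difference 2.22, SE 0.47, limma adjusted p = 0.0384), at 27.9 and 17.2 in *Mgp*-KO 1 and 3 and 2.15 to 5.99 in WT. *Il1b*, like *Ccl2*, passed the minimum of 10 only through the libraries labelled *Mgp*-KO. This call, and the counts and medians of the 7 between the groups, thus support nothing about the list. *Nos2*, the highest of them on average, stood at 184.4 in *Mgp*-KO 2 and at 364.0 and 413.8 in *Mgp*-KO 1 and 3.

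**Figure D5:**
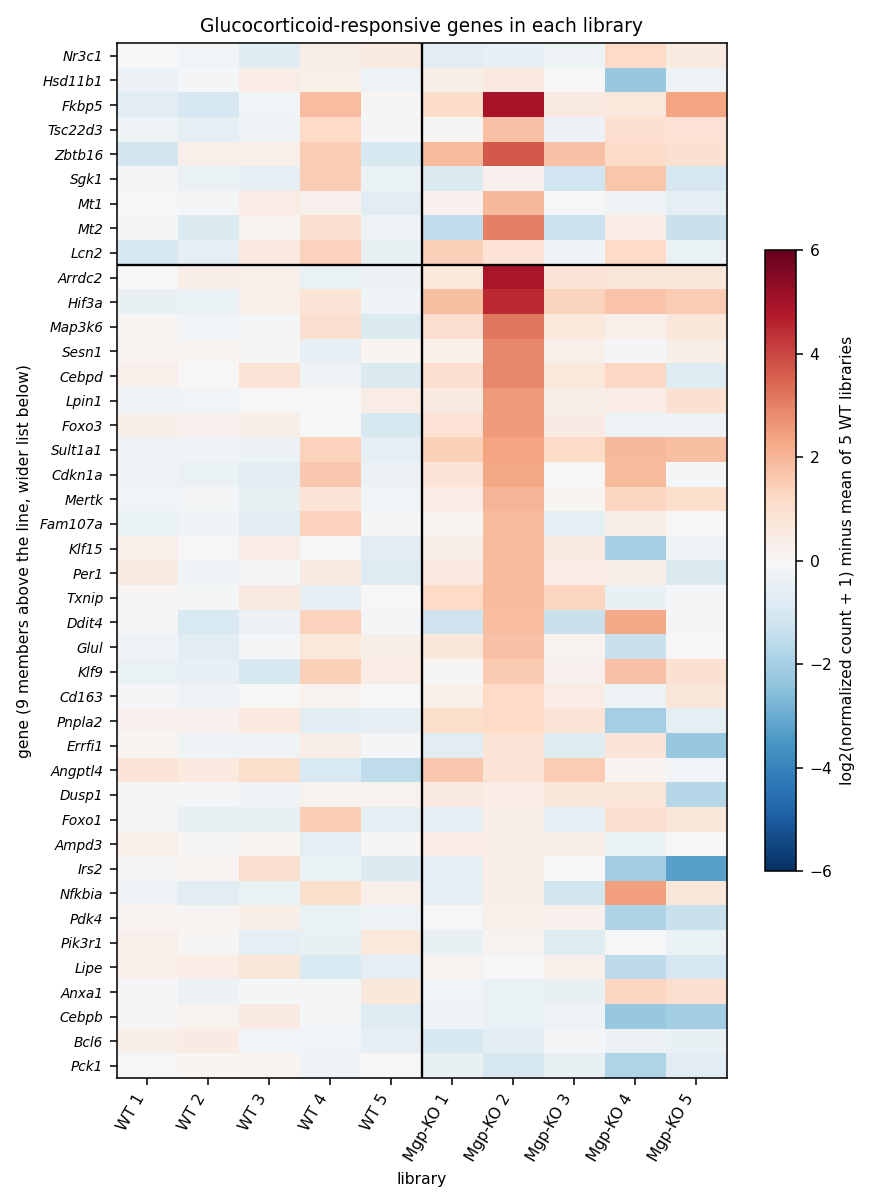
Log2(normalized count + 1) in each library minus the mean of the 5 WT libraries, with the 9 members above the line and the 33 tested genes of the wider list below it, ordered by the value in *Mgp*-KO 2. The darkest column is *Mgp*-KO 2, with *Arrdc2*, *Hif3a* and *Fkbp5* among its highest genes, and *Pck1* is lower than WT in all 5 libraries labelled *Mgp*-KO.

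*Mgp*-KO 2 also carried skeletal muscle RNA. The sum of 10 muscle markers was 31760 there, 36140 in *Mgp*-KO 5 and 6186 in WT 3, and 125.2 to 4326 in the other libraries. In *Mgp*-KO 5, with the larger muscle sum, *Fkbp5* was at 644.8, *Zbtb16* at 744.4, *Mt2* at 147.7 and *Arrdc2* at 134.8, where *Mgp*-KO 2 held 3894, 5102, 3043 and 2495. In the 3 WT libraries with the largest muscle sums, *Fkbp5* was at 110.3, 131.5 and 448.5. When WT 3, *Mgp*-KO 2 and *Mgp*-KO 5 were left out, the log2 difference of *Zbtb16* between the groups was 1.67 (limma adjusted p = 0.668) and that of *Fkbp5* was 0.71 (limma adjusted p = 0.834). The brown adipocyte sum was lowest of all libraries in *Mgp*-KO 2, at 152300. Of the 12 markers, 11 had a negative log2 difference over all libraries, and limma called 0 (5 with an unadjusted p below 0.05). With a term for the sets, where 2.36% of all genes were called, it called 3 lower, the uncoupling protein gene *Ucp1* (-2.70, SE 0.40, adjusted p = 0.0127), the deiodinase gene *Dio2* (-3.35, SE 0.63, adjusted p = 0.0228) and the elongase gene *Elovl3* (-3.64, SE 0.51, adjusted p = 0.0104). Within replicates 1 to 3 it called *Ucp1* and *Elovl3* lower (1.65% of all genes were), and without *Mgp*-KO 2 also *Dio2* and *Prdm16* (2.71% of all genes). Summed markers of endothelial cells ran from 19270 to 32290 in WT and from 22580 to 59960 in the libraries labelled *Mgp*-KO, the highest being *Mgp*-KO 4. Those of macrophages ran from 1416 to 2515 and from 1675 to 2286, and those of adipose progenitors from 11180 to 23440 and from 9881 to 21890. The part of cell composition in these values was not tested.

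Between the groups, the wider list held no gene past the threshold in the limma fit over all libraries (0 of 33, with 7 at an unadjusted p below 0.05, against 10.4% of all genes), edgeR called 0 and DESeq2 called 1, *Sult1a1*. Of the 33, 25 had a positive difference, and the median was 0.37 against 0.03 over all genes tested. In replicates 1 to 3 the median was 0.70, with 24 positive, and without *Mgp*-KO 2 it was 0.37, with 21 positive. In replicates 4 and 5 it was 0.076, with 18 positive and 15 negative. The difference between the sets' effects was negative for 27 of 33, and limma called 0 of them. *Sult1a1*, a sulfotransferase gene, stood at 782.8 ± 554.9 in WT and 2363 ± 752.7 in the libraries labelled *Mgp*-KO (SD, n = 5 each), with a log2 difference of 1.74 (SE 0.36, limma adjusted p = 0.0759). With a term for the sets, where 2.36% of all genes were called, it passed (limma adjusted p = 0.0239), as did *Cebpb*, a transcription factor gene of early adipogenesis, at -1.06 (SE 0.23, limma adjusted p = 0.0420). *Hif3a* had 4.29, 4.49, 8.09, 11.7 and 5.19 in WT 1 to 5 and 24.1, 163.7, 17.2, 22.7 and 19.9 in *Mgp*-KO 1 to 5, and was chosen after its values were seen. Its groups did not overlap, but it passed the minimum mean only through the libraries labelled *Mgp*-KO. *Hif3a* is still counted among the 33 tested genes, the 25 positive ones and the 10 named for *Mgp*-KO 2. *Pck1*, the rate-limiting gene of gluconeogenesis and of glycerol synthesis in fat, lay lower without overlap, at 48770 ± 5021 and 27700 ± 9097 (log2 difference -0.89, SE 0.29, limma adjusted p = 0.290), as for 290 of 13714 genes (2.11%).

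Within replicates 1 to 3, limma called 3 of the 33 genes higher, where 260 of 13714 genes were called higher (1.90%), and 0 lower, where 226 were (1.65%). They were *Sult1a1* (log2 difference 1.92, SE 0.28, adjusted p = 0.0192), *Dusp1*, a phosphatase gene that restrains MAP kinases (0.69, SE 0.11, adjusted p = 0.0225), and *Txnip*, an inhibitor of thioredoxin (1.28, SE 0.25, adjusted p = 0.0378). Without *Mgp*-KO 2, limma called 6 of the 33 higher and 0 lower, beside 439 higher (3.20%) and 372 lower (2.71%) of all genes. These were *Sult1a1*, *Dusp1* and *Txnip* together with *Map3k6* (log2 difference 0.87, SE 0.16, adjusted p = 0.0225), *Angptl4*, an inhibitor of lipoprotein lipase (0.77, SE 0.15, adjusted p = 0.0317), and *Klf9* (0.78, SE 0.17, adjusted p = 0.0446). Within replicates 4 and 5, limma called 0 of 33 (6 with an unadjusted p below 0.05).

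WT 4 was the second library with high values of several members. It held 448.5 of *Fkbp5*, 2062 of *Tsc22d3* and 5445 of *Sgk1*, each the highest of the WT libraries, and also 1115 of *Zbtb16* and 716.8 of *Mt2*. *Mt1* did not share this, with 2703 in WT 4 and 3074 in WT 3. In *Mgp*-KO 4, *Sgk1* was at 6312 and *Nr3c1* at 4732, each the highest of the 10 libraries, while *Hsd11b1* was the lowest. *Mgp*-KO 4 held the highest value of 3539 of 13714 genes (25.8%), and ribosomal RNA took 16.7% of its reads.

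The genes whose profiles over the 10 libraries were nearest to that of *Fkbp5*, after each set was centred, were *Hif3a*, *Fbxo31* and *Map3k6*, with mean absolute log2 differences of 0.47, 0.48 and 0.52. *Fbxo31*, a ubiquitin ligase subunit gene, had 519.1 to 2222 in WT and 4714, 15370, 2945, 1064 and 1747 in *Mgp*-KO 1 to 5. *Zbtb16* was the nearest member, at rank 58 of the tested genes. For *Tsc22d3* the nearest genes were *Foxo3*, *Usp2* and *Bcl2l1*, at 0.11, 0.12 and 0.15, and *Mt1* was the nearest member at rank 7. The measure is a description over 10 libraries, and *Mgp*-KO 2 weighs in it for all of these genes.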

How the data were processed

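RNA of iBAT from 5 WT and 5 *Mgp*-KO mice was sequenced with single reads of 50 bases. Per the submitters' processing notes the authors mapped reads to mm10 with STAR, and, as the methods state, took the gene counts that STAR reports. The deposited signal is the count of each library divided by its DESeq2 size factor, so it is never negative. The annotation release and strand setting were not given in the sources used here. Dividing each library by its smallest step gave whole reads for 100% of values, with a largest deviation of 0.00181 reads.

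Genes with a mean of at least 10 normalized counts (13714) were tested with limma 3.58.1 in R 4.3.3, letting the prior variance follow the mean level, on log2(normalized count + 1). Benjamini-Hochberg adjustment ran over all tested genes, and 0.05 was the threshold. *Lcn2* was tested with a two-sided exact permutation test. Alternatives were pseudocounts of 0.5 and 10, no filter or a mean of at least 50, other scalings, no trend, a set term, the replicate number as a block, edgeR 4.0.16 and DESeq2 1.42.0 on the recovered reads, each library left out, and *Mgp*-KO 4 and 5 left out. Leaving out *Mgp*-KO 2 with a set term, leaving out the 3 libraries richest in muscle RNA, and all alternatives for *Lcn2* were added after seeing the data. The fits were run on simulated data with the same relative spread for all genes and no outlying library. No effect that differs between the sets was planted, so the simulation does not gauge the fits on data like these. No pair of libraries of the same group agreed within sampling noise.

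The members, gene lists and sets of replicates were chosen with earlier results of these data known. The text names all members, genes of the lists that passed between the groups or are among the 4 others of highest mean, and, for *Fkbp5* and *Tsc22d3*, the 3 genes of nearest profile. *Hsp90aa1*, which passed between the sets, and *Hsd11b2*, *Ly6g*, *Camp*, *Ngp*, *Gm45774*, *Orm2* and the 10 genes named for their level in *Mgp*-KO 2 were outside this rule and were named after their values were seen. Gene positions come from GENCODE M21 (GRCm38) and promoters from RefSeq.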

Additional observations from a re-analysis of the deposited data

Results flagged for a closer look

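Of 18 groups of 5 values, 2 for each member, 8 held a highest value that was far from the other 4 (a gap over 0.71 of the range). In *Mgp*-KO 2 these were *Fkbp5* at 3894 normalized counts, with 644.8 in the next library of the group, *Zbtb16* at 5102 with 1508 next, *Mt1* at 8718 with 2673 next, and *Mt2* at 3043 with 511.5 next. In WT 4 they were *Fkbp5* at 448.5 with 131.5 next, *Tsc22d3* at 2062 with 823.7 next, and *Sgk1* at 5445 with 1806 next. *Sgk1* in *Mgp*-KO 4 was at 6312, with 2342 next. The rule marks about 5% of groups where values are independent and normally distributed. Here it was run on normalized counts, not on the log scale, and most marks came from *Mgp*-KO 2 and WT 4. The 8 therefore cannot be set against that 5%.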

How the results depend on the processing

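The count of members past the threshold over all libraries was 1 with DESeq2 and 0 with the other alternatives. Of these, DESeq2 with a set term gave no adjusted p for *Fkbp5*, *Zbtb16* and *Mt2*, so that they could not pass there. Within replicates 1 to 3 it was 1 with DESeq2, 1 with the replicate block in limma, and 0 to 2 as each library was left out. The 2 came without *Mgp*-KO 2. Within replicates 4 and 5 it was 0 under all 9 alternatives. For the difference between the sets' effects it was 0 to 1 with a library left out, the 1 without *Mgp*-KO 5. Between the sets it was 2 with DESeq2 and 1 to 2 with a library left out. The causes were not tested. *Lcn2* kept its direction and side in all 15 alternatives.

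Of all tested genes, 9 passed in the fit described, 29 with a pseudocount of 10, 1 with no filter, 15 with a mean of at least 50, 34 with quantile normalization, 3 with edgeR, 374 with DESeq2, 324 with a set term, 1152 with a set term in DESeq2, 267 without *Mgp*-KO 4 and 5, 206 with a set term and without *Mgp*-KO 2, 0 without the 3 muscle-rich libraries, and 0 to 93 with a library left out (93 without *Mgp*-KO 4, 34 without WT 4, 5 without *Mgp*-KO 5, and 0 without WT 2, 3 or 5 or *Mgp*-KO 1 or 3). Of the 33 wider genes, 0 passed in that fit, 2 with a set term, 1 with DESeq2, 8 with a set term in DESeq2, 1 without *Mgp*-KO 4 and 5, 2 with a set term and without *Mgp*-KO 2, and 0 to 1 with a library left out (*Sult1a1* without WT 4).

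The paper describes the RNA as coming from 5 pairs of *Mgp*-KO and WT mice. Neither it nor the labels say that a replicate number marks a pair, a shared litter or a day. Deviations from the group means correlated at 0.390 on average for libraries of the same number (0.0559 to 0.527) and at 0.416 for other numbers of the same set, and 3 libraries labelled *Mgp*-KO correlated best with their own number. With the replicate block, 270 genes passed in limma and 222 in edgeR, and 1 of the wider genes in each. In limma the block also called *Abcb1b* and *S100a8* (adjusted p of 0.0433 and 0.0448), and no longer *S100a9* (0.0556), which passed with the set term. *Zbtb16* had an adjusted p of 0.0776 over all libraries and of 0.0243 within replicates 1 to 3.

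Several members turned direction within a comparison, and limma and edgeR passed none of these members in that comparison with either sign. Over all libraries, *Mt2* was at 0.98 with edgeR, 0.98 with DESeq2, 0.82 with DESeq2 and a set term, and 0.068 without *Mgp*-KO 4 and 5. There *Nr3c1* was at -0.50 and *Hsd11b1* at 0.30. *Sgk1* was at 4e-04 with DESeq2, *Mt1* at -0.10 with a set term and without *Mgp*-KO 2, and *Nr3c1* at -0.11 without the muscle-rich libraries. With a library left out, *Nr3c1* ran from -0.24 to 0.22, *Hsd11b1* from -0.57 to 0.15, *Sgk1* from -0.70 to 0.14, *Mt1* from -0.14 to 0.50 and *Mt2* from -0.92 to 0.22. Within replicates 1 to 3 *Sgk1* ran from -0.65 to 0.077, *Mt1* from -0.0038 to 0.97 and *Mt2* from -1.19 to 1.10. Within replicates 4 and 5 *Sgk1* was at 0.044 with edgeR and 0.032 with DESeq2. There, with a library left out and the lone library assumed to vary like the others, *Fkbp5* ran from -0.33 to 1.43, *Tsc22d3* from -0.28 to 1.05, *Zbtb16* from -0.47 to 1.95, *Sgk1* from -1.56 to 1.13, *Mt1* from -0.64 to 0.24 and *Mt2* from -1.66 to 0.12. For the difference of effects *Sgk1* ran from -1.33 to 1.36, *Tsc22d3* from -1.11 to 0.21 and *Mt2* from -1.96 to 0.42. Between the sets *Mt2* was at -0.46 with DESeq2, and ran from -0.33 to 0.75, and *Fkbp5* from -0.16 to 1.17. Low depth limits *Lcn2* most, at 2 to 20 reads.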

Other observations

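Of 14 acute phase and related genes 9 were tested, with a median log2 difference of 0.11 against 0.03 over all genes, and limma called 1 lower and 0 higher over all 10 libraries, where 8 of 13714 genes were called lower (0.0583%). This was *C3*, the central complement component, at 14570 ± 1950 in WT and 4693 ± 1424 in the libraries labelled *Mgp*-KO (SD, n = 5 each), with a log2 difference of -1.68 (SE 0.24, limma adjusted p = 0.0322). All 5 libraries labelled *Mgp*-KO, at 3206 to 6548, lay below all WT libraries, at 11660 to 16550. No gene passed, *C3* included, when WT 2, WT 3, WT 5, *Mgp*-KO 1 or *Mgp*-KO 3 was left out.

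With a term for the sets, limma also called *Orm1*, an acute phase glycoprotein gene, at -1.05 (SE 0.20, adjusted p = 0.0254), and *Steap4*, a metalloreductase gene, at -0.84 (SE 0.18, adjusted p = 0.0352), where 324 of 13714 genes were called in either direction (2.36%). *Orm2* held 0 to 1 reads in each library labelled *Mgp*-KO and 2 to 8 in WT, and was not tested. Haptoglobin (*Hp*) was at 7639 ± 1044 and 1820 ± 988.1 (SD, n = 3 each) within replicates 1 to 3 (log2 difference -2.25, SE 0.43, limma adjusted p = 0.0382), with 732.8 in *Mgp*-KO 2, the lowest of all libraries. In replicates 4 and 5 it was at 17370 and 9673 in WT and at 14730 and 8491 in *Mgp*-KO 4 and 5.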
